A study of Arabidopsis thaliana with 2 samples.

Results

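The genes that flank NPR1 on chromosome 1 of Arabidopsis thaliana were compared between leaves of the npr1-1 mutant and of Col-0. Every listed gene lying wholly within a fixed interval of about 1 Mb on each side of NPR1 was taken (first member from 22856188, last to 24854153, TAIR10), which gave 328 of the 18345 genes in the deposited tables. The RefSeq annotation holds 514 protein-coding genes in the same interval, and those outside the tables were not analysed here. The plants were 2 weeks old and all had spent 24 h at 4 °C in long days before their leaves were collected. One library came from wild-type Col-0 and one from npr1-1, under light of 90 µmol m-2 s-1 before the cold and 40 during it. The libraries held 50864103 and 50976521 reads over the listed genes. No warm control was used here, so the comparison is of genotypes within the cold. With 1 library per genotype there is no spread between samples to test against, no p-value is given, and intervals cover counting error only.

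NPR1 is a receptor for salicylic acid and a co-activator that works with TGA transcription factors at defence genes. The npr1-1 allele is a point mutation in the ankyrin repeats, recovered from chemically mutagenised Col-0, and it leaves a full-length gene in place. When a mutation is selected and backcrossed, the chromosome around it is inherited with it, so the neighbours of the gene come from the mutagenised parent more often than distant genes do. An effect of the NPR1 mutation, of another change in the same segment and of ordinary variation between plants cannot be told apart in these libraries.

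The genes around NPR1 were for the most part at similar levels in both genotypes, with a few exceptions. A gene for a G-patch protein, AT1G63980, and the meiosis gene SPO11-2 that overlaps it were 5.20-fold and 4.03-fold lower in npr1-1, while TOM7-2, closer still to NPR1, was 2.61-fold higher. Of the 328 genes, 229 reached 5 CPM (reads scaled to 1000000 over the listed genes) in at least one library, and the other 99 stayed below it in both. On the scale of log2(CPM + 1), 3 of the 229 differed by 2-fold or more, or 1.31%, against 0.73% of all 13976 genes past that minimum. Lower in npr1-1 were 2 of them, or 0.873%, against 0.529% of all genes, and higher was 1, or 0.437%, against 0.2%. With 2 of the 3 counted from overlapping models, the share is close to that background.

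The gene ends at which these 3 genes meet their neighbours are printed here from the RefSeq sequence of TAIR10.1, since 2 of the genes share a short upstream stretch with a neighbour that was close between the libraries. Capitals mark matches to any of 5 short motifs searched on both strands: TTGAC (the core of the W-box bound by WRKY factors), TGACG (the core bound by TGA factors), CCGAC (the core bound by CBF factors), GAANNTTC (a heat shock element) and ACGTG (the core bound by ABF factors). The first stretch, of 108 bases, separates ISPF on the left from AT1G63980 on the right, which are transcribed away from each other (chr1:23740385-23740492, plus strand).
ISPF to AT1G63980: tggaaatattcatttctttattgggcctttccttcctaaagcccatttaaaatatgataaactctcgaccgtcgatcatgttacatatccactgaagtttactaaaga
The second, of 91 bases, separates TOM7-2 on the left from UBC28 on the right, again transcribed away from each other (chr1:23833394-23833484, plus strand). Gene ends for every stretch are those of the RefSeq models, which can reach past the deposited ones. By the deposited models TOM7-2 and UBC28 lie 241 bases apart.
TOM7-2 to UBC28: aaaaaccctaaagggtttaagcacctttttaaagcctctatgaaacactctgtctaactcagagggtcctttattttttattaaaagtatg
The third is the 250 bases before SPO11-2 (chr1:23745386-23745635, minus strand), and the fourth the 250 bases before NPR1 itself (chr1:23855659-23855908, minus strand).
Before SPO11-2: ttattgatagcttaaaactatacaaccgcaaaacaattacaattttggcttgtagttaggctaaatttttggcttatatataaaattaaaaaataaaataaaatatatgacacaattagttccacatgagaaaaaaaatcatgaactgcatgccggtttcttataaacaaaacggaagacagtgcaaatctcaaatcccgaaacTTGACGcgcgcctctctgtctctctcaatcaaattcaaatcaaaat
Before NPR1: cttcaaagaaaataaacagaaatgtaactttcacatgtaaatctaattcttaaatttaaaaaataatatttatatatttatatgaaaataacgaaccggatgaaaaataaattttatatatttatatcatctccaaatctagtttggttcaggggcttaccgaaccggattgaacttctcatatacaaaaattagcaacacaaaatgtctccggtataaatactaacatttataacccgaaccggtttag

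Capitals appear only before SPO11-2, where a TTGAC and a TGACG overlap in one run of 6 bases. TTGAC was found in 44.3% and TGACG in 19.2% of the 250-base stretches before all 18153 matched nuclear genes that allowed one, so such a match is common. None of the 5 motifs was found in the other 3 stretches. For the 108 bases next to AT1G63980 the most frequent of the motifs, TTGAC, is found in 23.3% of stretches of that length, and for the 91 bases next to TOM7-2 in 19.7%.

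NPR1 (AT1G64280, chromosome 1, 23852748 to 23855566, minus strand) had 1120 reads in Col-0 and 954 in npr1-1. That is 22.02 and 18.7 CPM, a log2 difference of -0.22. A point mutation need not change the amount of transcript, so this value does not check the genotype. Its 5 nearest listed neighbours on the right were close between the libraries. Among them, AT1G64330, a gene annotated as myosin heavy chain-like, had 49.0 and 43.0 CPM, and SEH1H, a WD40 protein of the nuclear pore, had 24.5 and 25.2 CPM. AT1G64355, annotated as an acyltransferase, had 28.7 and 25.9 CPM. The kinase gene AT1G64300 had 93 reads in each library and AT1G64320 had 73 and 82, both below the minimum. The 5 nearest on the left were more mixed, since TOM7-2 (described below) and VHA-E3 differed. UBC28, which encodes a ubiquitin-conjugating enzyme, had 145 and 146 CPM, and AT1G64190, a 6-phosphogluconate dehydrogenase of the pentose phosphate pathway, had 58.6 and 60.9 CPM. AT1G64185, whose model overlaps AT1G64190, had 174 and 195 reads. VHA-E3, a subunit gene of the vacuolar proton pump, was also below the minimum, with 124 reads in Col-0 and 60 in npr1-1, a ratio of 0.483 with a 95% counting interval from 0.349 to 0.662.

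The lowest member was AT1G63980, at 23740516 to 23743302 on the plus strand, 109 kb from NPR1. Its product is annotated as a D111/G-patch domain protein, a class that includes RNA-binding and helicase-activating proteins. It had 6134 reads in Col-0 and 1183 in npr1-1, or 121 and 23.2 CPM. The level in npr1-1 was 5.20-fold lower, with a counting interval from 4.88 to 5.53. Its left neighbour ISPF, an enzyme gene of isoprenoid synthesis in the plastid, starts across the 108 bases printed above and had 67.5 and 61.2 CPM. The steep difference was therefore seen on one side of that stretch and not on the other.

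SPO11-2 (AT1G63990, 23742842 to 23745374, minus strand) lies to the right of AT1G63980 and runs towards it. It encodes a topoisomerase-like protein that acts with SPO11-1 in making the double-strand breaks of meiosis. It had 772 reads in Col-0 and 192 in npr1-1, or 15.2 and 3.77 CPM, which is lower by 4.03-fold (counting interval 3.44 to 4.74). The models of the 2 genes overlap by 461 bases on opposite strands, and the use of strand in the counting is not given in the sources used here. Reads from the overlap could therefore belong to either gene, and the pair may count one difference more than once. Per kb of model, AT1G63980 stood at 77.6 CPM and SPO11-2 at 9.17 CPM in Col-0, and at 14.9 and 2.27 CPM in npr1-1. To the right of the pair, TOPP3, a type 1 protein phosphatase gene, had 70.6 and 65.9 CPM.

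TOM7-2 (AT1G64220, 23833088 to 23833321, minus strand) was the highest member, 19.4 kb from NPR1. It encodes a small subunit of the complex that imports proteins through the mitochondrial outer membrane. It had 134 reads in Col-0 and 351 in npr1-1, or 2.63 and 6.89 CPM. The ratio was 2.61, and counting error put it between 2.14 and 3.21. The gene passed the minimum only through the npr1-1 library, and with a pseudocount of 5 CPM in place of 1 its log2 difference was 0.64 instead of 1.12, under 2-fold. UBC28, across the 91 bases printed above, had a ratio of 1.01, from 0.975 to 1.04. No transcript elsewhere matched TOM7-2, AT1G63980 or SPO11-2 at 95% identity over 50% of their length.

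Within 120 kb of NPR1 there were 44 listed genes, 34 of them past the minimum. The other 31 of these 34 had log2 differences from -0.45, in AT1G64370, to 0.33, in AT1G64490. Of the genes below the minimum there, VHA-E3 had the ratio of 0.483 given above, and AT1G64065 had 79 reads in Col-0 and 41 in npr1-1, a ratio of 0.518 (0.346 to 0.764). The 3 genes 2-fold apart, of which AT1G63980 and SPO11-2 are one overlapping pair, lay on the lower-coordinate side of NPR1.

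**Figure D1:**
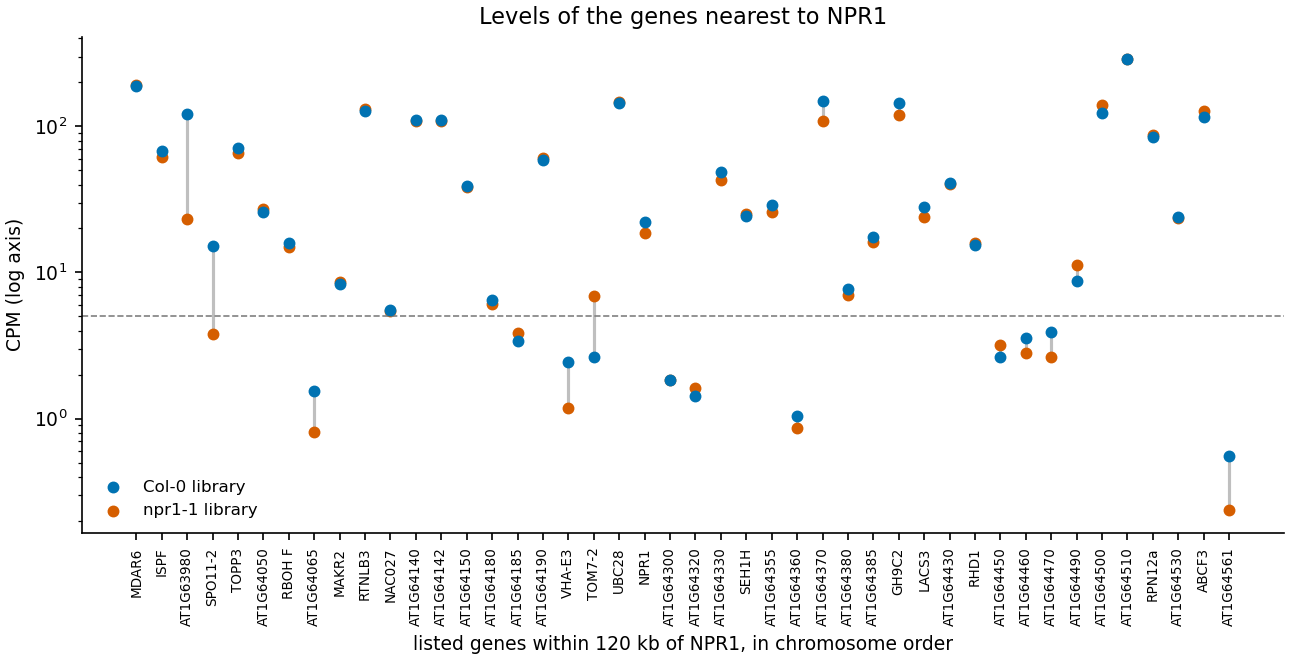
Level in CPM, on a log axis, of the 44 listed genes within 120 kb of NPR1 in chromosome order, with 1 point for the Col-0 library and 1 for the npr1-1 library and a dashed line at 5 CPM. Most pairs of points above the line touch, whereas AT1G63980 drops from 121 to 23.2 CPM and SPO11-2 from 15.2 to 3.77 CPM, and TOM7-2 is higher in npr1-1.

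Past 1.5-fold, differences leaned towards lower levels in npr1-1. At this level 10 of the 229 genes were lower, or 4.37%, against 2.06% of all genes. These 10 include the 2 overlapping genes past 2-fold. Higher was 1 gene, or 0.437%, against 0.909% of all genes. Both directions together came to 11 genes, 4.80%, against 2.97%. At a log2 difference of 0.32 the members were at the background, with 22 lower, 14 higher and 36 in all, or 15.7%, against 15.2% of all genes (9.09% lower and 6.11% higher). Between that level and 1.5-fold there was no such lean, with 12 members lower and 13 higher, against 983 and 727 of all genes. The counting interval of the ratio lay apart from 1 for 134 of 229 members, 58.5%, against 60.2% of all genes, so at this depth most genes anywhere differ by more than counting error. Lower were 90 members, 39.3% of the 229, against 36.8% of all genes, and higher were 44, 19.2%, against 23.5%.

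The 8 genes past the minimum between 1.5-fold and 2-fold lower were spread over the interval, from 304 to 893 kb away from NPR1. Genes below the minimum are not in this count. Of those, VHA-E3 and CYP86A7 lay nearer, at 22.7 and 219 kb, with log2 differences of -0.66 and -0.70. The 8 genes serve in hormone signalling, defence, protein quality control and metabolism. GLC, a gene for an HXXXD-type acyltransferase, had 1130 reads in Col-0 and 588 in npr1-1, or 22.2 and 11.5 CPM, with a log2 difference of -0.89. RGL1, one of the DELLA proteins that hold back gibberellin responses, had 12.2 and 6.55 CPM, a difference of -0.81. WRKY6, a transcription factor of senescence and phosphate responses, had 13.5 and 7.75 CPM, a difference of -0.73. These last 2 were the only transcription factor genes among the 8.

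RK2, a receptor kinase gene, had 13.8 and 7.87 CPM, and the thionin gene AT1G66100, of a family of small antimicrobial proteins, had 61.5 and 37.4 CPM. Protein folding and removal came next. AT1G66080 resembles Hikeshi, which in human cells carries Hsp70 into the nucleus, and had 12.1 and 6.69 CPM. Hrd1B, a ubiquitin ligase for misfolded proteins of the endoplasmic reticulum, had 14.8 and 9.42 CPM, the smallest difference of the 8 at -0.61. FMO GS-OX4, which oxidises the side chain of aliphatic glucosinolates, was the most abundant, with 13319 reads in Col-0 and 8075 in npr1-1, or 262 and 158 CPM.

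On the higher side TOM7-2 stood alone past 1.5-fold. Next came AT1G65370, annotated as TRAF-like, with 14.3 and 20.99 CPM, and CYP89A2, a cytochrome P450 gene, at 63.1 and 88.9 CPM. The early nodulin-like gene ENODL8 had 7.57 and 10.8 CPM, and CP5, of the polyketide cyclase and lipid transport family, had 147 and 203 CPM. AT1G65150, also TRAF-like, had 5.62 and 8.06 CPM. The remaining 6 of the 12 highest were AT1G62790, AT1G63310, AT1G62480, ACS10, AT1G65490 and FMO GS-OX1, with log2 differences from 0.44 down to 0.36. At the other end, AT1G61850, AT1G62250 and AT1G64370 followed the 10 lowest, with differences of -0.50, -0.48 and -0.45. ENODL8 overlaps another listed model, as do AT1G62790, ACS10 and AT1G62250, so part of their reads is of uncertain origin.

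**Figure D2:**
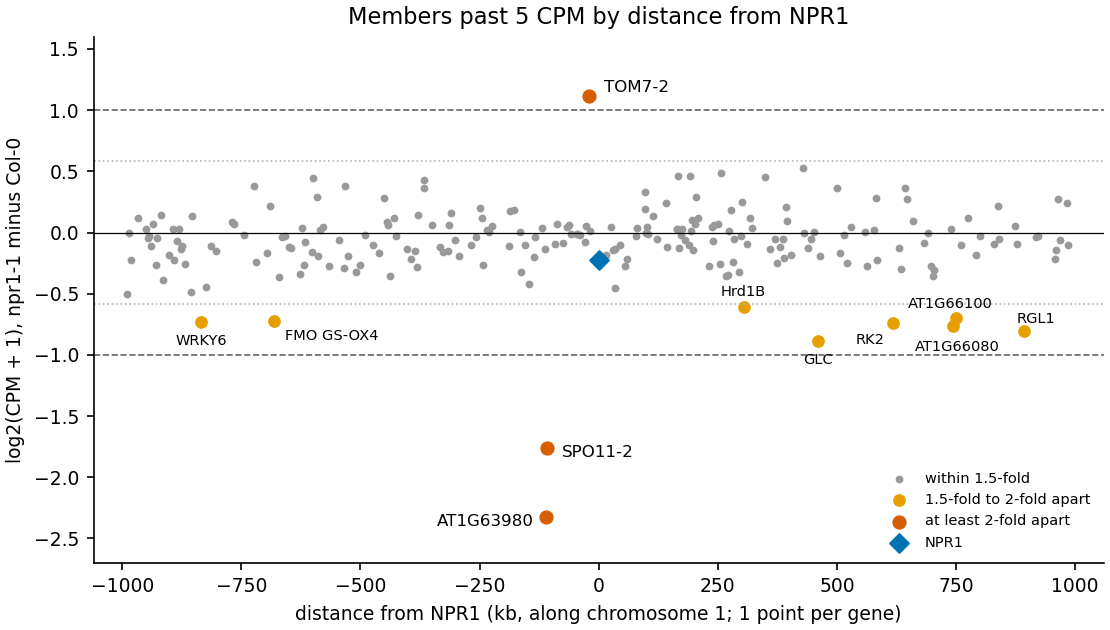
Difference in log2(CPM + 1), npr1-1 minus Col-0, of the 229 genes past 5 CPM against their distance from NPR1 in kb, 1 point per gene, with lines at 1.5-fold (dotted) and 2-fold (dashed). The 3 genes past 2-fold lie within 110 kb to the left of NPR1, and the 8 genes from 1.5-fold to 2-fold lower lie at 304 kb or more.

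Split by distance, 3 of 57 genes within 0.2 Mb of NPR1 were at least 2-fold apart, or 5.26%, against 0.73% of all genes. Of these 3, AT1G63980 and SPO11-2 are an overlapping pair, and SPO11-2 and TOM7-2 passed the minimum only through the library where they were high. Each of the 4 farther classes, of 36 to 55 genes, held 0. At a share of 0.73%, classes of that size are too small for a count of 0 to stand apart. Within 0.2 Mb the median absolute log2 difference was 0.10, the smallest of the 5 distance classes, which ran up to 0.18 at 0.6 to 0.8 Mb. In that last class 4 of 36 genes were at least 1.5-fold lower, or 11.1%, against 2.06% of all genes. The bulk of the nearest genes thus differed least, although the 3 largest differences were among them.

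Over all 229 genes the median log2 difference was -0.05, as for all 13976 genes, and 62.0% were lower in npr1-1, against 59.0% of all genes. The median absolute difference was 0.13, against 0.14. Summed over the 328 members the level came to 12892 CPM for the wild type and 12311 CPM for the mutant, so npr1-1 held 0.955 of the Col-0 level (0.952 to 0.958). Abundant genes weigh most in this sum. GAD2 (779 and 643 CPM) and FMO GS-OX4 (262 and 158 CPM) were lower, and SAG24 (294 and 348 CPM) and CP5 (147 and 203 CPM) were higher. The sum therefore does not describe the typical member.

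Windows of the same width, 2.01 Mb, were laid end to end on chromosomes 2 to 5, and the 34 with at least 100 genes past the minimum were compared with the interval around NPR1. They held from 106 to 379 such genes, with a median of 289. The share at least 2-fold apart ran from 0% to 2.54%, with a median of 0.741%, and 5 of the 34 windows exceeded the 1.31% around NPR1. By number, 7 windows held more than 3 such genes and 5 held none. The interval was therefore in the upper part of this order but not at its end, and its place rests on each of 3 genes. Without any one of them the share was 0.877%, and without SPO11-2 14 windows were above it. Like TOM7-2, SPO11-2 passed the minimum through 1 library only, here Col-0. Without any gene whose model overlaps another, here and in the windows, it was 0.503%, 1 of 199 genes, and 23 windows were above it.

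The share at least 1.5-fold lower placed the interval higher. It was 4.37%, against 0.551% to 4.72% in the windows with a median of 2.02%, and only 1 window of the 34, on chromosome 3 with 106 genes, exceeded it. For 1.5-fold in either direction the 4.80% was again exceeded by 1 window, in a range from 1.23% to 5.66%. By the median absolute difference the order was the opposite, since 32 of the 34 windows lay above the interval's 0.13, in a range from 0.12 to 0.17. The interval thus combined a narrow spread of most genes with a longer lower tail. The windows are stretches of the same pair of libraries and not replicates, so these places in the order describe the libraries and carry no p-value.

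**Figure D3:**
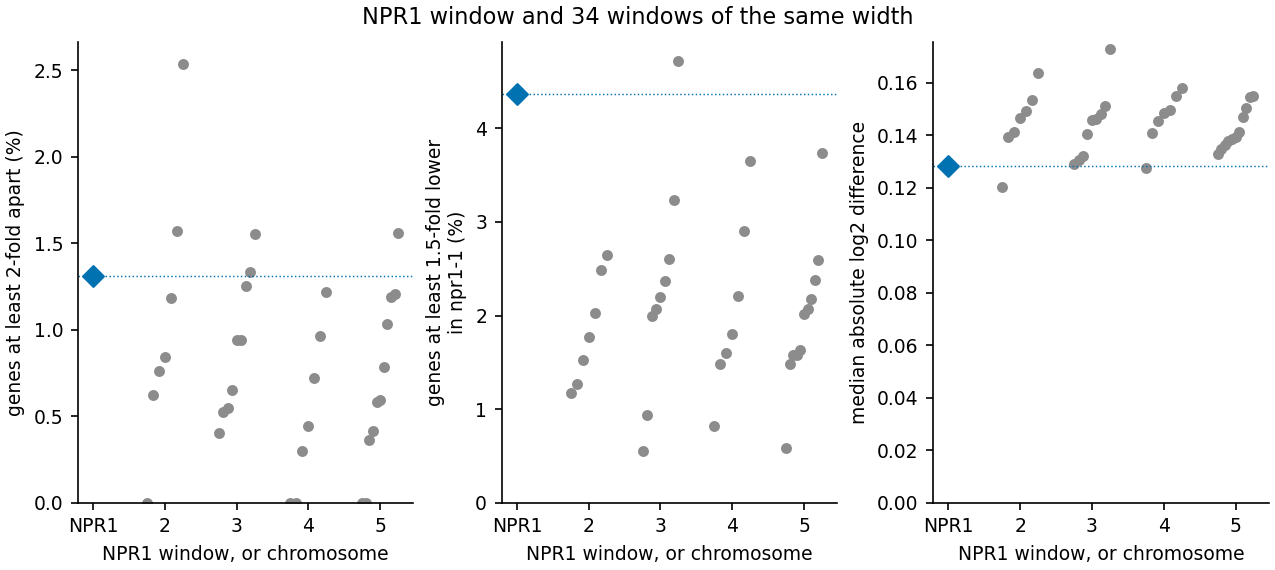
Share of genes at least 2-fold apart (left), share at least 1.5-fold lower in npr1-1 (middle) and median absolute log2 difference (right) in the interval around NPR1 (diamond and dotted line) and in 34 windows of the same width on chromosomes 2 to 5 (points). The interval is exceeded by 5, 1 and 32 windows respectively.

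Neighbouring genes that both differ were rare in the whole table. Of 13893 pairs of genes next to each other past the minimum, 8 had both genes at least 2-fold apart in the same direction, and AT1G63980 with SPO11-2 was 1 of them. Of 779 pairs with overlapping models past the minimum, 2 did so, the other being AT1G53480 with AT1G53490.

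By product name, 75 of the 229 genes fell into 14 functional classes, and 0 genes of these classes were 2-fold apart, against 0.73% of all genes, a share too small for that count to tell the classes from the rest. Of 12 genes placed among transcription factors by their product names, 9 were lower and 3 higher, where 59.0% of all genes were lower. Their median was -0.04. The 12 include AT1G63170, annotated as a RING finger protein, so the class is not purely of transcription factors. RGL1 and WRKY6 passed 1.5-fold, against 25 of the 751 genes so placed (3.33%) in the whole table. Among 9 protein kinase genes RK2 passed it, against 29 of 608 kinase genes (4.77%), and the median was -0.03. Of 21 listed genes for pentatricopeptide and tetratricopeptide repeat proteins, the former known for RNA processing in organelles, 8 passed the minimum. Their log2 differences ran from -0.36 in AT1G63130 to 0.10.

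Of 9 disease resistance genes of the TIR or NBS-LRR type, the intracellular immune receptors, 4 passed the minimum with a median of -0.12, against -0.15 for the 77 such genes of the whole table. AT1G63860 had 5.45 and 3.81 CPM and AT1G63880 had 50.9 and 44.1 CPM. The other 2 were close, AT1G62630 at 18.4 and 17.9 CPM and AT1G63360 at 28.9 and 30.1 CPM. The flavin monooxygenases, several of which oxidise glucosinolates, had 5 of 9 genes past the minimum and a median of -0.17. That of the 10 such genes of the whole table, these 5 among them, was -0.04. Of these 5, 3 were lower and 2 higher. FMO GS-OX4 was lower, FMO GS-OX2 had 10.8 and 9.51 CPM, FMO GS-OX3 had 69.2 and 80.5 CPM, and FMO GS-OX1 had 44.9 and 58.1 CPM. AT1G62600 had a difference of -0.36, and its model overlaps another gene. The 4 below the minimum were all lower, with counting intervals below 1. Of all genes past the minimum 36.8% had such an interval, and the share among genes below it was not computed. NOGC1 had 92 and 35 reads, AT1G62620 had 177 and 133, AT1G63370 had 75 and 51, and AT1G63390 had 90 and 55. AT1G62620 and AT1G63370 are near-identical copies of each other, so their differences may not be separate. AT1G63390 also has near-identical copies, AT1G62600 among them. Reads may have been divided between such copies in a way that is not known.

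The smaller classes held few genes. Classes follow words in product names, so a gene whose product is named otherwise is not counted in its class. A class can also hold genes of another kind. Of 4 cytochrome P450 genes 3 were lower, with CYP89A6 at 6.23 and 4.65 CPM, and of 7 ubiquitin genes 3 were lower, with AT1G63840 at 6.13 and 4.71 CPM. Of all genes 59.0% were lower, and classes this small cannot be told from that share. All 3 chaperone genes were lower, with a median of -0.21, against -0.08 for 189 chaperone genes of the whole table. Of the 3, AT1G66080 passed 1.5-fold, against 15 of the 189 (7.94%), and AT1G65280, a DnaJ protein gene, had 40.3 and 34.7 CPM. The 17 genes placed by these words among unknown products had a median of -0.10, against -0.05 for the 1096 genes so placed overall. The 17 include the glutamine synthetase gene GSR2 and the F-box gene AT1G64840, so not all lack a known product. The 2 genes with a ribosomal protein as product name, AT1G64510 and AT1G64880, were close, at 287.7 and 287.1 CPM and at 88.4 and 92.6 CPM. Their median was 0.03, against 0.31 for the 311 such genes of the whole table. Cytosolic and organelle ribosomal proteins were not separated, and 2 genes are too few to set against the 311. The 2 genes placed in the transporter class by these words were AMT1;2, for ammonium uptake, at 80.9 and 98.9 CPM, and AT1G61890, with a difference of -0.23. The single genes of other classes were PTAC4, of the plastid, at 237 and 218 CPM, AT1G65820, a microsomal glutathione transferase, at 57.6 and 52.8 CPM, and the F-box gene AT1G64840 at 8.10 and 8.40 CPM.

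A list of 27 genes with known roles in hormones, pigments, nitrogen, sulfur and defence that lie in or near the interval had 22 members, 20 of them past the minimum. Of the 20, 3 were at least 1.5-fold lower (RGL1, WRKY6 and FMO GS-OX4), against 2.06% of all genes, and 0 were 1.5-fold higher, against 0.909%. The list was chosen with earlier results of these data known, and these 3 genes were already described above. Their count is therefore no separate result. The median of the 20 was -0.09, and that of all genes -0.05. In ethylene signalling the receptor gene ETR1 had 20.1 and 18.8 CPM. In salicylic acid and immune signalling the NADPH oxidase gene RBOH F, which makes reactive oxygen at the cell surface, had 15.8 and 14.9 CPM. In the flavonoid pathway 4CL3 had 110 and 103 CPM and its regulator EGL3 had 10.6 and 12.4 CPM. MYB90, an anthocyanin activator, had 115 and 114 reads.

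In nitrogen and sulfur metabolism GSR2, a glutamine synthetase gene also called GLN1;2, had 179 and 176 CPM, and APR2, of sulfate reduction, had 504 and 466 CPM. BDG1, of cuticle formation, had 14.3 and 14.6 CPM, the proteasome subunit gene RPN12a had 84.95 and 87.6 CPM, and the invertase gene AT1G62660 had 13.8 and 12.6 CPM. STM, which keeps the shoot meristem undifferentiated, had 129 and 137 reads, and SAG24 had 294 and 348 CPM. Each of these genes stayed under a log2 difference of 0.32.

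The 5 most abundant members by CPM were SCO1, GAD2, APR2, SAG24 and AT1G64510. SCO1, an elongation factor of plastid translation, had 854 and 810 CPM, and GAD2, a glutamate decarboxylase that makes GABA, had 779 and 643 CPM. The models of SCO1, GAD2 and APR2 each overlap another listed gene, as does that of ETR1. Across the 328 members CPM ran from 0.177 to 854.

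**Figure D4:**
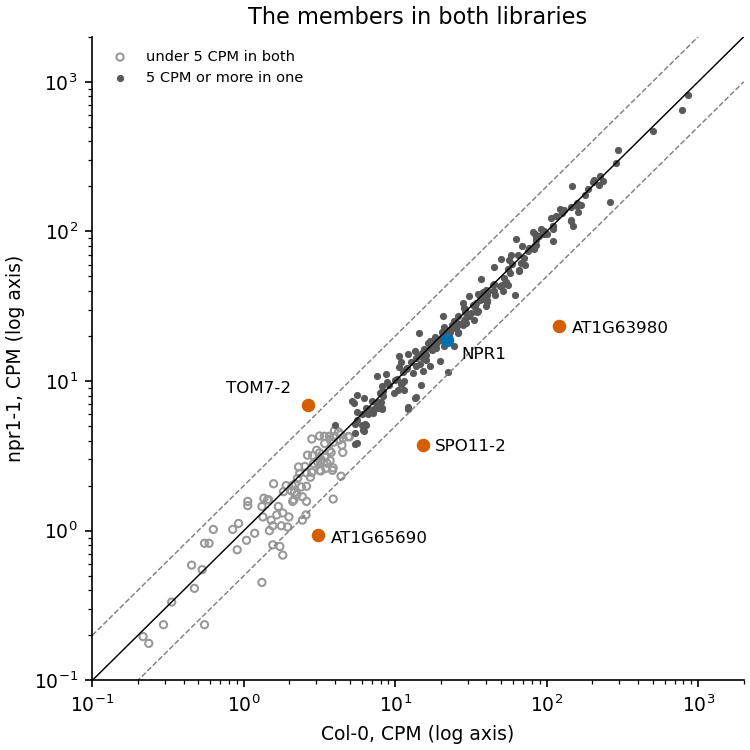
CPM in npr1-1 against CPM in Col-0, both on log axes, for the 328 members, with the line of equality (solid) and 2-fold lines (dashed). The 99 genes under 5 CPM in both libraries are open circles. AT1G63980 and SPO11-2 lie well below the lower 2-fold line and TOM7-2 above the upper one, while NPR1 is close to equality.

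Of the 99 members below the minimum, 63 had at least 100 reads in one library, and 1 of these had a ratio whose interval lay wholly beyond 2-fold, against 49 of 2552 such genes in the whole table, or 1.92%. It was AT1G65690, annotated as a late embryogenesis abundant hydroxyproline-rich glycoprotein, with 157 reads in Col-0 and 48 in npr1-1, a ratio of 0.305 from 0.216 to 0.424. It lies 576 kb from NPR1. None of the 328 members was at 0 reads in either library.

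At the borders, AT1G61850 was the first member inside the left edge, at 19.6 and 13.6 CPM, and GPT2, a sugar phosphate translocator gene, the last listed gene outside it, at 93.6 and 76.96 CPM. On the right, AT1G66620 was the last inside, at 3.74 and 4.04 CPM, and AT1G66660 the first outside, at 3.77 and 4.67 CPM.

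As a check of tissue, the leaf genes RBCS1A and RCA stood at 13067 and 4137 CPM in Col-0 and at 13311 and 5446 CPM in npr1-1. The root marker BGLU23 was at 47.2 and 48.8 CPM, above the median of all genes past the minimum in both libraries. The shoot meristem marker STM had 129 and 137 reads, below the minimum. The other meristem marker, WUS, and the seed and flower markers chosen were not among the listed genes. Whether the libraries held tissue other than leaf was not tested.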

How the data were processed

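RNA sequencing reads of 2 libraries, 1 per genotype, were deposited as CPM, counts which the authors had scaled to a sum of 1000000 in each library (18345 genes), per the file headers and values, and written with a decimal comma. The other facts on processing come from the submitters' processing notes, which name TopHat2, DESeq2 and the build TAIR10 without version or role. How reads were counted, on which strand, and from how many plants is not given in the sources used here.

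Every CPM value was a whole multiple of the value of 1 read, within 0.02 for 100% of values. This gave 50864103 reads for Col-0 and 50976521 for npr1-1, so that 5 CPM stood for 254 and 255 reads. The difference per gene was log2(CPM + 1), as npr1-1 minus Col-0. Genes needed 5 CPM in one library or more. The pseudocount understates changes of low genes. Intervals are exact conditional binomial (Clopper-Pearson) at 95%. PCR copies are not separate molecules.

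Products and sequences are from RefSeq, TAIR10.1, which matched 324 of 328 members. All 18154 matched nuclear genes overlapped their reference model. Copies were sought with BLAST+ 2.17.0 among spliced RefSeq transcripts. Of the 229 genes 30 overlap another listed model, 2 have a near-identical copy, and 2 pairs of models share one position and the same reads. Python 3.11.15, numpy 2.4.6, pandas 2.3.3, scipy 1.17.1 and matplotlib 3.10.9 were used, and the calculation was tested on simulated data.

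The members, lists and tests were chosen with earlier results of these data known. Named genes are NPR1, members 2-fold apart, the 12 largest differences each way, 5 neighbours on each side, the 5 most abundant, listed pathway genes (1 is not reported here), 2 per class and the border genes. ISPF, TOPP3, AT1G64370, AT1G64490, AT1G64065, AT1G62630, AT1G63360, the 4 low monooxygenase genes and the pair AT1G53480 and AT1G53490 were named after their values were seen. So were AT1G63170 and CYP86A7.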

Additional observations from a re-analysis of the deposited data

How the results depend on the processing

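No paired analysis was possible because there was 1 library per genotype, and no library could be left out. The share of members at least 2-fold apart (1.31%) stayed between 0.503% and 2.29% under other scalings, minimums, pseudocounts, models and a flank of 0.5 Mb, and was 4.29% within 0.25 Mb. It was 4.80% at 1.5-fold, 15.7% at a log2 difference of 0.32 and 58.5% by the counting interval, which set a lower bar by construction. The median log2 difference of -0.05 was -0.012 under median-ratio scaling, -0.014 within 0.25 Mb and 0.00197 after subtracting the median of the length class. The median absolute difference of 0.13 was 0.11 with a pseudocount of 5 CPM and 0.0985 within 0.25 Mb. The place of the interval among 35 windows was 6, and 7 or 8 with other grids. Chosen after the data were seen were the settings that gave place 15 (without SPO11-2), 24 (without overlapping models), 2 (by the share 1.5-fold apart or 1.5-fold lower) and 33 (by the median absolute difference). Where no construction shows it, the cause was not tested. For 69 named members, 21 of 207 alternative values left the counting interval, and 4 members near 0 changed sign (AT1G64300, AT1G64510, GSR2 and MYB90). Depth limits members under 5 CPM, whose median in the higher library was 124 reads.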
